A study of Mus musculus with 8 samples.

Results

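The 10 genes described here are the NF-kB family of transcription factors, a set of its feedback regulators and L1cam, in cells from brains of mice with ependymoma driven by a fusion of ZFTA with RELA. They were chosen by gene symbol: Rela, Relb, Rel, Nfkb1, Nfkb2, Nfkbia, Nfkbie, Tnfaip3, Birc3 and L1cam, that is 10 of the 33696 genes in each count matrix. All 10 were found and all 10 passed the filter on low counts in every test below.

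The mice (NestinCreERT2;Fus1;RFPTdT) carry a conditional fusion allele, which Cre recombinase under the Nestin promoter, active in radial glia and other neural progenitors, switches on, and a red fluorescent reporter. At the age of 3 weeks, mice with tumours were allocated at random to 1 injection into the cerebrospinal fluid of either a control antibody (vehicle IgG) or mavrilimumab (5 mg/kg), which blocks the alpha chain of the receptor for GM-CSF, a growth factor of myeloid cells. Brain and tumour were collected from age-matched mice of 6 to 8 weeks, and cells stained for CD45 and Ter119 were sorted and loaded on a droplet platform that reads the 5′ end of transcripts. By the study's account, the sort was for CD45+ cells lying outside the blood vessels, from tumours at recurrence. The neural or tumour cells below, which have no UMI of Ptprc, the gene of CD45, are thus not cells that this sort set out to keep. The study describes regression of treated tumours for around 6 weeks, and how recurrence relates to an age of 6 to 8 weeks is not stated. There are 4 gene expression libraries, 2 per label, no library from mice without the fusion, and several tumours were pooled per group. P-values therefore measure only the spread between libraries.

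NF-kB proteins act as pairs. Rela (p65), Rel (c-Rel) and Relb carry the domain that activates transcription, whereas Nfkb1 and Nfkb2 encode precursors (p105 and p100) that are cut to the partner subunits p50 and p52. In resting cells the inhibitors IkB-alpha (Nfkbia) and IkB-epsilon (Nfkbie) hold the pairs in the cytoplasm. Once a receptor signal removes the inhibitors, the pairs enter the nucleus and switch on, among others, their own brakes: Nfkbia itself, Tnfaip3 (A20, an enzyme that edits ubiquitin chains) and Birc3 (cIAP2, a ubiquitin ligase). L1cam, an adhesion molecule of neurons, is used in pathology to recognise ependymoma with the ZFTA-RELA fusion.

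Promoter sequences show which of these genes carry a match to the NF-kB (kappaB) consensus close to their start site. RefSeq windows of GRCm38.p6, the patch release of mm10, run from 250 bases before to 50 bases after the start and matched 8 of the 10 genes, leaving out Relb and Nfkb1. The 10-letter kappaB consensus, searched by its name on both strands with overlapping matches kept, was found for 5 of these 8 genes (Rel, Nfkb2, Nfkbia, Nfkbie and Tnfaip3), and in 5.14% of the 27025 genes with a window of 300 bases. Shown are the windows of an inhibitor (Nfkbia), a subunit (Nfkb2, the first of its 3 windows) and a feedback enzyme (Tnfaip3, the first of its 2 windows), and, for contrast, that of Rela, with the bases of every match in capitals, 5′ to 3′ along the gene.
Nfkbia, chr12:55492598-55492897, minus strand: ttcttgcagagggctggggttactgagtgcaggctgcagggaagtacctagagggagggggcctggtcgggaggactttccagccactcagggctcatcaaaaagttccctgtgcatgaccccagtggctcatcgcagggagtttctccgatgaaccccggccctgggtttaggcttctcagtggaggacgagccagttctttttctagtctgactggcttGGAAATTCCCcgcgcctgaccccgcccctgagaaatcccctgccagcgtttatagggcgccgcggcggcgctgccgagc
Nfkb2, chr19:46304487-46304786, plus strand: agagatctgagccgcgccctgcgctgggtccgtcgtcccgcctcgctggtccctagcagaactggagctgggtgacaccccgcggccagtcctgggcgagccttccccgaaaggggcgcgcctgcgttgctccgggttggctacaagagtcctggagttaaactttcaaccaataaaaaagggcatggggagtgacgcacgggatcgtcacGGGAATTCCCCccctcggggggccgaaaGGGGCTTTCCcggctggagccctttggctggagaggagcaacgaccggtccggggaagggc
Tnfaip3, chr10:19015361-19015660, minus strand: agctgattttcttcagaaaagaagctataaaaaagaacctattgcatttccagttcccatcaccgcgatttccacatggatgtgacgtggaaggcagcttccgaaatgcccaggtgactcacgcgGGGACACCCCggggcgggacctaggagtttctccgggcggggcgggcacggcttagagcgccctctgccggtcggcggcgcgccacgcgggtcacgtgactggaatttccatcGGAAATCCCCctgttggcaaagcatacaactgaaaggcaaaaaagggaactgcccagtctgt
Rela, chr19:5637291-5637590, plus strand: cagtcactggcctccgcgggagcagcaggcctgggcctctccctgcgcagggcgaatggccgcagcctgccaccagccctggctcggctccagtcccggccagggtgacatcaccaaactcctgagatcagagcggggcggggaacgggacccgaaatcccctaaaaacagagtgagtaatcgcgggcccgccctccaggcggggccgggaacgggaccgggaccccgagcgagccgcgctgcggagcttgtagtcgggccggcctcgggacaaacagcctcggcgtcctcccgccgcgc

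In Nfkbia the match begins 29 bases before the start site and reads GGAAATTCCC, the reverse strand of the consensus. In Nfkb2 the matches GGGAATTCCC (39 bases before the start, on both strands) and GGAATTCCCC overlap, and GGGGCTTTCC begins 11 bases before the start. Tnfaip3 held GGGACACCCC and GGAAATCCCC at 125 and 12 bases before its start. No match lay in the windows of Rela, Birc3 and L1cam. A match of letters is a description of the sequence and not a measurement of binding.

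Barcodes were kept as cells if they held 1000 or more UMIs (unique molecular identifiers, each standing for 1 captured RNA molecule) from 200 to 6000 genes, with mitochondrial UMIs making up 10% or less. This left 39632 cells, between 984 and 26746 per library, with total depths of 24354457 to 148657643 UMIs and median depths of 3296 to 11759 UMIs per cell. Cells were grouped by marker UMIs: neural or tumour (no Ptprc, Nnat plus Mdk at 3 or more; normal neural and tumour cells are not told apart), oligodendrocyte, T, B, microglia and monocyte. The 1376 cells that met several rules were left out. Levels are CPM, the usual depth-scaled count: the UMIs of a gene relative to all UMIs, both summed over the cells of 1 group in 1 library, for sums of at least 20 cells. Neural or tumour cells reached that number only in vehicle IgG 2 (15088 cells) and mavrilimumab 2 (408 cells). The former made up 56.4% of the cells kept in vehicle IgG 2, and the free RNA of that library carried 3580 CPM of Nnat and 163 CPM of Zfta. The T cells of that library read 36.4 CPM of Zfta, against at most 1.199 CPM in the other libraries, and the part of free RNA or doublets in this was not tested. The treatment labels carry a doubt: in 3 of 3 T cell receptor files the inner sample name gave the other treatment, and the cell barcodes of receptor library mavrilimumab 1 mostly matched cells of expression library mavrilimumab 2 (2491 of 2749), as those of receptor library mavrilimumab 2 did cells of expression library mavrilimumab 1 (4867 of 5659). Those of receptor library vehicle IgG 1 matched expression library vehicle IgG 1 (182 of 193). Directions of treatment below follow the labels of the expression libraries. Expression libraries shared 0 to 60 barcodes of kept cells per pair.

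The main question asked of these genes was how a tumour driven by a RELA fusion compares with the immune cells around it. Most of the 10 genes were lower in neural or tumour cells than in immune cells, and Rela and L1cam were not called. Against the mean of T cells, B cells, microglia and monocytes, 8 of the 10 genes were lower in neural or tumour cells and none was higher, where 17.9% of the 14442 genes tested were called lower and 21.3% higher (edgeR quasi-likelihood test, library as a block, Benjamini-Hochberg adjusted p, here FDR, under 0.05). The median log2 difference of the 10 genes was -2.84, beside 0.04 over all genes tested. Without mavrilimumab 2, which leaves 1 library of neural or tumour cells, 6 of the 10 were called and Nfkb1 (FDR 0.13) and Nfkb2 (FDR 0.088) were not. With free RNA subtracted by the sum of a marker list, which drops sums estimated to be free RNA throughout, 2 were called (Tnfaip3 and Birc3).

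**Figure D1:**
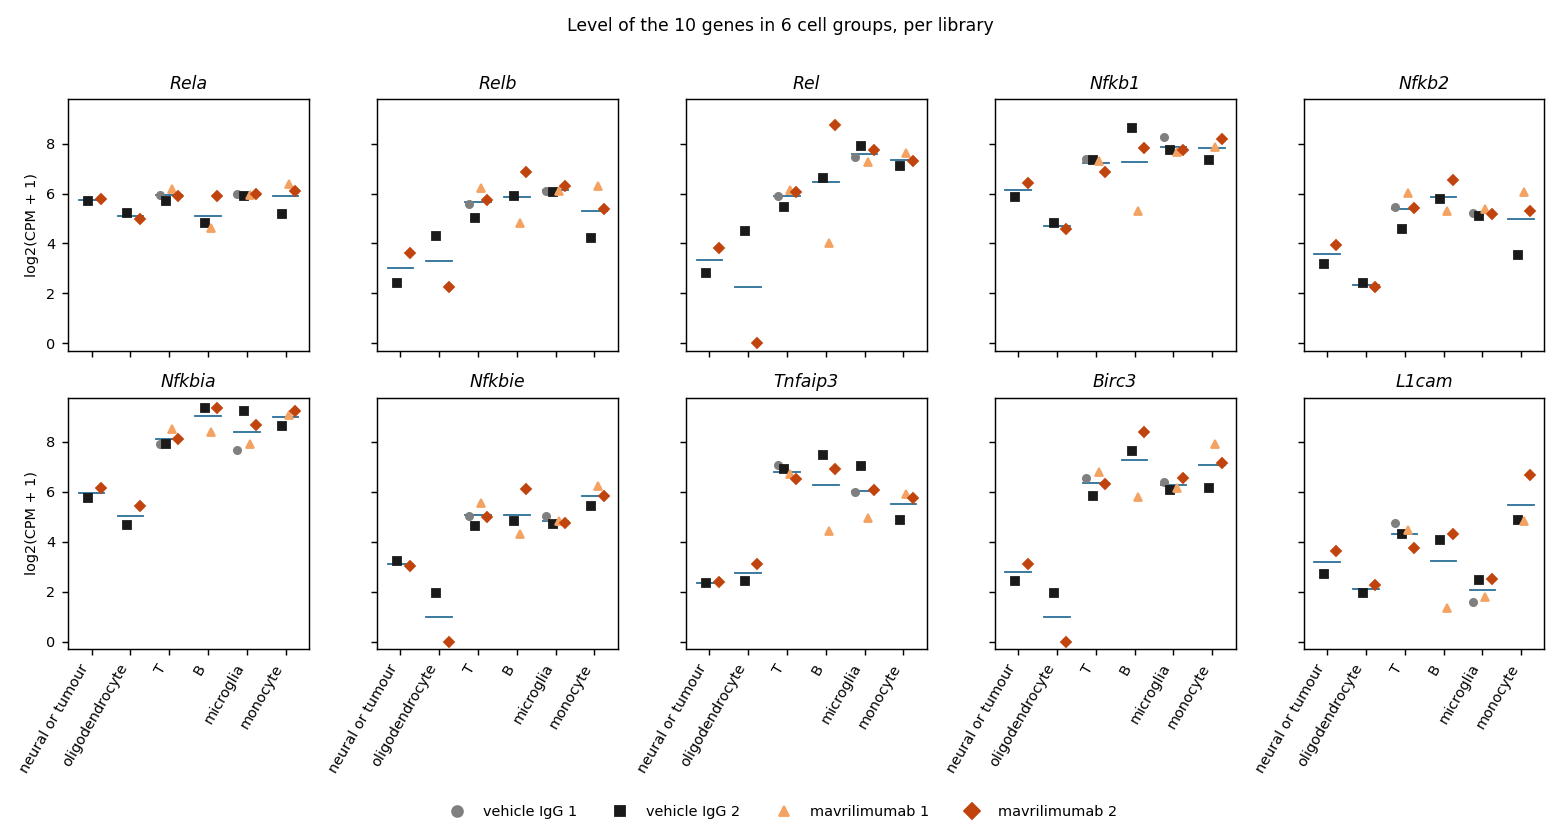
Level of each of the 10 genes, as log2(CPM + 1), in 6 cell groups. Each point is 1 library with at least 20 cells of that group, and blue lines are means over libraries. Rela lies at a like height in neural or tumour cells and immune cells, whereas the points of Nfkbia, Tnfaip3 and Birc3 in neural or tumour cells and oligodendrocytes lie below every point of the 4 immune groups.

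Among the activating subunits, Rela read 50.7 CPM in neural or tumour cells of vehicle IgG 2 and 53.7 CPM in those of mavrilimumab 2. T cells read 60.1 and 50.7 CPM in the vehicle IgG libraries and 71.4 and 59.0 CPM in the mavrilimumab libraries, and microglia 59.6 to 63.0 CPM over 4 libraries. These ranges touch or lie close together, and the log2 difference from immune cells was -0.33 ± 0.25 (SE; edgeR FDR 0.33). Without mavrilimumab 2 the estimate was 0.18, so its sign rests on that library. The matrix has no row for the fusion, and whether fusion transcripts add to the reads of Rela or Zfta was not tested. Mouse Zfta itself, the other partner of the fusion, read 137 and 121 CPM in neural or tumour cells, and its log2 difference from immune cells was 4.08 ± 0.62 (edgeR FDR 0.00043).

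Relb, the partner of p52 in the slower, noncanonical branch of the pathway, read 4.36 and 11.4 CPM in neural or tumour cells. Its levels in the immune groups ran from 17.7 CPM in monocytes of vehicle IgG 2 to 115 CPM in B cells of mavrilimumab 2, with no overlap with neural or tumour cells. The log2 difference was -3.23 ± 0.50 (edgeR FDR 0.00048). Rel, the subunit best known from lymphocytes, read 6.05 and 13.1 CPM in neural or tumour cells and 43.7 to 70.0 CPM in T cells. Microglia stood higher still for Rel, at 154 to 239 CPM. The log2 difference of Rel from immune cells was -4.38 ± 0.82 (edgeR FDR 0.0016).

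The precursor genes were lower in neural or tumour cells as well, by smaller log2 differences than Relb and Rel. Nfkb1 read 57.6 and 85.9 CPM in neural or tumour cells, 115 to 164 CPM in T cells and 202 to 311 CPM in microglia (log2 difference from immune cells -1.93 ± 0.44, edgeR FDR 0.0045). The B cells of mavrilimumab 1 lay below both neural or tumour sums, with 38.9 CPM of Nfkb1. Nfkb2 read 8.07 and 14.4 CPM in neural or tumour cells, 23.1 to 63.4 CPM in T cells and 33.5 to 40.3 CPM in microglia (-2.12 ± 0.33, edgeR FDR 0.00049). The 10.6 CPM of Nfkb2 in monocytes of vehicle IgG 2 lay between the neural or tumour sums. Among the 5 subunit genes, the difference was thus largest for Rel and smallest for Rela.

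The inhibitors were lower too. Nfkbia read 53.0 and 70.2 CPM in neural or tumour cells. T cells read 240 and 243 CPM in the vehicle IgG libraries and 368 and 277 CPM in the mavrilimumab libraries, and microglia 205, 599, 244 and 411 CPM in the same order. No immune sum overlapped with neural or tumour cells, and the log2 difference was -3.25 ± 0.39 (edgeR FDR 8.1e-05). Nfkbie read 8.25 and 7.19 CPM in neural or tumour cells and 18.8 to 74.7 CPM in the immune sums (-2.45 ± 0.36, edgeR FDR 0.00037).

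The feedback enzymes showed the widest gap from the mean of the 4 immune groups, whereas Rel had the widest from microglia (-5.03, Tnfaip3 -4.64). Tnfaip3 read 4.04 and 4.23 CPM in neural or tumour cells, 89.3 to 134 CPM in T cells and 29.6 to 130 CPM in microglia. The log2 difference was -4.82 ± 0.56 (edgeR FDR 6.7e-05). Birc3 read 4.40 and 7.61 CPM in neural or tumour cells, 56.2 to 109 CPM in T cells and 67.0 to 92.0 CPM in microglia (-4.57 ± 0.49, edgeR FDR 3.9e-05). Empty droplets, which hold free RNA, read 24.4 CPM (9 UMIs) and 62.3 CPM (463 UMIs) of Tnfaip3 in vehicle IgG 2 and mavrilimumab 2, more than the neural or tumour cells of the same libraries. The share of free RNA in these cells was estimated at 16.4% and 3.75% by the sum of the marker list. By the median gene of that list it was 8.00% and 2.17%, so the share depends on the estimate. The part of free RNA in the Tnfaip3 UMIs was not tested.

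L1cam did not separate neural or tumour cells from immune cells as a whole. It read 5.55 and 11.4 CPM in neural or tumour cells, 26.0, 18.8, 21.1 and 12.5 CPM in T cells of vehicle IgG 1 and 2 and mavrilimumab 1 and 2, and 1.99 to 4.63 CPM in microglia. Monocytes had the highest mean of the 6 groups, with 28.3, 27.5 and 100 CPM. The log2 difference of neural or tumour cells from immune cells was -1.34 ± 0.53 (edgeR FDR 0.061), from T cells -1.90 ± 0.60 (FDR 0.027) and from microglia 0.71 ± 0.59 (FDR 0.38). L1cam was therefore called lower in neural or tumour cells than in T cells, and not distinguishable from microglia. It was also called lower than in monocytes (-3.21 ± 0.64, edgeR FDR 0.0027) and not called against B cells (-0.97 ± 0.65, FDR 0.29). CD8 T cells, a T cell subset, read 8.71 to 10.4 CPM, between the neural or tumour sums, and were not tested against them. Within mavrilimumab 2 the 11.4 CPM of neural or tumour cells and the 12.5 CPM of T cells lay close together, beside 8.61 CPM in free RNA. Only 1.84% and 1.96% of the neural or tumour cells of vehicle IgG 2 and mavrilimumab 2 had a UMI of L1cam.

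**Figure D2:**
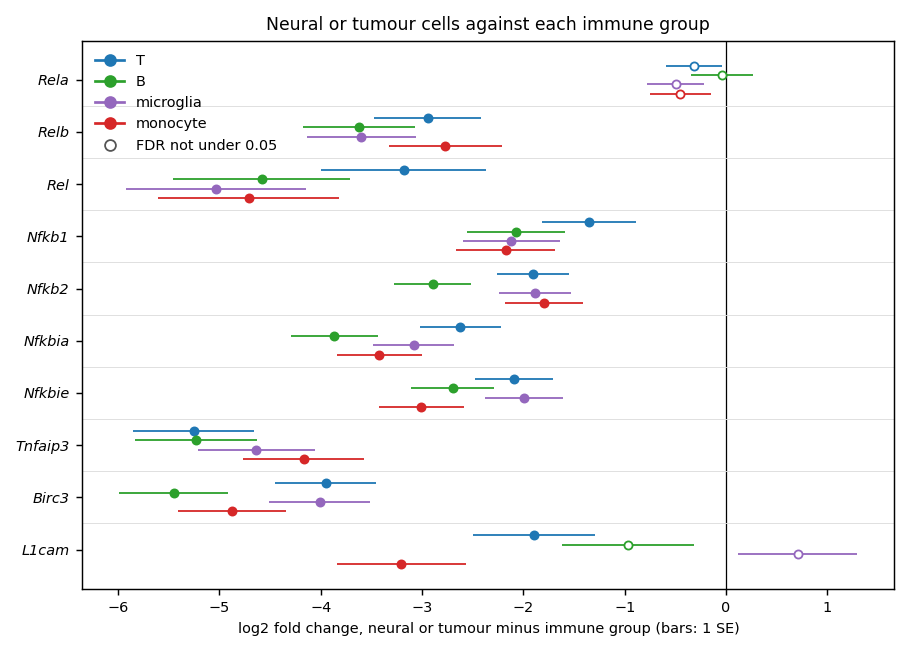
Log2 fold change of neural or tumour cells against T cells, B cells, microglia and monocytes for each of the 10 genes, with bars of 1 SE from the edgeR fit. Filled points have an FDR under 0.05. 9 genes lie below 0 in all 4 comparisons, Rela between -0.49 and -0.04, and L1cam lies above 0 against microglia (0.71).

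The B and monocyte groups were mixed, so the pairs that avoid them were also read. Against T cells alone 9 of the 10 genes were lower in neural or tumour cells, where 18.3% of genes were, and against microglia alone 8 of 10, where 19.1% were. Within mavrilimumab 2, the library with both cell groups and few neural reads in its T cells, T cells held 21.1 times the Tnfaip3 level of neural or tumour cells, 10.3 times that of Birc3, 3.95 times that of Nfkbia, 1.33 times that of Nfkb1, 1.10 times that of Rela and 1.09 times that of L1cam. Vehicle IgG 2 gave 29.8, 12.8, 4.58, 2.83, 1.00 and 3.38 times for the same genes. All 10 neural check markers, which had not been used to assign cells, were above 10 CPM in the neural or tumour group in both libraries. This did not set the group apart in vehicle IgG 2, where oligodendrocytes, T cells, B cells and microglia also had all 10 above 10 CPM. The sums there were 2463 CPM in neural or tumour cells, 2250 CPM in oligodendrocytes and 471 to 775 CPM in T cells, B cells and microglia. In mavrilimumab 2 they were 1816 CPM in neural or tumour cells, 1689 CPM in oligodendrocytes and 14.4 CPM in T cells. Of the 10 markers 10, 4 and 0 reached 10 CPM in these groups. The T cell markers of the neural or tumour group summed to 12.6 and 22.0 CPM over 8 genes. Its microglial markers summed to 517 and 1956 CPM over 8 genes, of which 2 and 3 were above 10 CPM, and their part in these values was not tested. Stress genes, which dissociation can raise, summed to 893 and 842 CPM in neural or tumour cells, 912 to 1683 CPM in T cells and 2977 to 11318 CPM in microglia, and 7 of 10 were called lower in neural or tumour cells. The part of the stress response in the NF-kB differences was not tested.

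For Nfkbia the share of cells with at least 1 UMI was lower in neural or tumour cells than in T cells, as the level was. Nfkbia was detected in 16.8% (95% exact binomial interval 16.2 to 17.4) and 18.6% (14.97 to 22.8) of neural or tumour cells, at median depths of 3981 and 3541 UMIs. In T cells the share was 37.4% (35.9 to 38.9) in vehicle IgG 2, at a median of 2531 UMIs, and 75.3% (73.7 to 76.95) in mavrilimumab 2, at 10897 UMIs. With each cell thinned to 1000 UMIs the expected shares were 4.58% and 4.81% in neural or tumour cells and 15.7% to 24.4% in T cells over 4 libraries. Tnfaip3 was detected in 1.52% (1.33 to 1.73) and 1.96% (0.85 to 3.83) of neural or tumour cells, and in 1.91% (0.40 to 5.48) of the 157 oligodendrocytes of vehicle IgG 2. In mavrilimumab 2 it was detected in 1 of 25 oligodendrocytes. Thinned to 1000 UMIs, the expected shares of Tnfaip3 were 0.40% and 0.60% in neural or tumour cells and 0.64% and 0.32% in oligodendrocytes of vehicle IgG 2 and mavrilimumab 2, so the order differed between the libraries, and expression was not told apart from background. Intervals cover counting error only.

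Calls in the wider pathway were mostly lower in neural or tumour cells, though many genes, among them 8 of 15 receptors, were not called. Of 9 further inhibitors 7 were called lower and none higher, among them Nfkbid (-4.41 ± 0.64) and Nfkbiz (-2.97 ± 0.38), nuclear proteins of the IkB family. Of 29 kinases and adaptors 17 were lower and 1 higher. Malt1, which links antigen receptors to NF-kB in lymphocytes, differed by -3.18 ± 0.40. The kinase called higher was Ikbke (IKK-epsilon), related to the IKK complex, with 1.54 ± 0.50 (edgeR FDR 0.026). Ikbke read 40.2 and 84.2 CPM in neural or tumour cells and 39.1 to 102 CPM in T cells, which overlap, and 7.91 to 22.3 CPM in microglia, which do not.

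Of 15 receptors that activate NF-kB 7 were lower and none higher, with Cd28, the T cell costimulatory receptor, at -5.78 ± 1.46. Nfkbid stands both on the list of 24 other known targets and on that of the inhibitors, and is counted in each. Of these 24 targets 14 were lower, led by Cd83 (-6.94 ± 0.80), a surface protein of activated antigen-presenting cells, and the chemokine Ccl4 (-6.67 ± 1.59). These are differences from the mean of 4 immune groups, some of which read low as well. Cd28 read 0.21 and 0.85 CPM in neural or tumour cells and 0 to 6.57 CPM in microglia. Ccl4 read 1.57 and 1.27 CPM in neural or tumour cells and 0.77 to 99.8 CPM in B cells. Cd83 read 0.21 and 2.11 CPM in neural or tumour cells and 0.75 to 4.29 CPM in CD8 T cells, a T cell subset. Microglia read 362 to 1857 CPM of Ccl4 and 343 to 477 CPM of Cd83. The 3 targets that were higher were Vcam1 (2.61 ± 0.75, edgeR FDR 0.016), Marcksl1 (2.17 ± 0.72, FDR 0.031) and Icam1 (1.13 ± 0.39, FDR 0.038). Vcam1 and Icam1 are adhesion molecules, and both had microglial levels in the same range as neural or tumour cells: Icam1 read 124 and 241 CPM in neural or tumour cells, 167 to 194 CPM in microglia and 47.0 to 87.9 CPM in T cells. The median log2 differences were -1.48 for the inhibitors, -1.02 for kinases and adaptors, -2.73 for receptors and -4.24 for targets, against 0.04 over all genes. In the fusion-linked list Gli2 (5.74 ± 1.09), Zfta (4.08 ± 0.62) and Ccnd1 (2.31 ± 0.83) were all higher in neural or tumour cells. Of 10 interferon-stimulated genes 5 were lower, with a median of -0.98.

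No difference was found between dividing and other neural or tumour cells. Cells with a UMI of Mki67 or Top2a (3755 and 61 cells in the 2 libraries) were set against the rest. None of the 10 genes was called by edgeR or by DESeq2, where edgeR called 4.92% of 15300 genes. At an unadjusted edgeR p under 0.05 stood 1 of the 10, L1cam, beside 1632 of all genes tested. L1cam read 2.35 CPM in cycling and 6.98 CPM in other cells of vehicle IgG 2, and 0 of 375589 UMIs (a count of 0 that allows up to 7.99 CPM) against 13.6 CPM in mavrilimumab 2 (-1.84 ± 0.68, edgeR FDR 0.11).

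Oligodendrocytes, the myelinating cells, also read low for these genes. With 157 and 25 cells, they read 36.0 and 30.5 CPM of Rela, 24.5 and 41.9 CPM of Nfkbia, 27.3 and 22.9 CPM of Nfkb1 and 4.32 and 7.63 CPM of Tnfaip3. None of the 10 genes was called between oligodendrocytes and neural or tumour cells, where 9.92% of genes were. At an unadjusted edgeR p under 0.05 stood 2 of the 10, beside 3800 of 14442 genes. Against T cells 7 of 10 were lower in oligodendrocytes, where 15.8% of genes were. Neural markers summed to 2250 and 1689 CPM over 10 genes in oligodendrocytes, against 2463 and 1816 CPM in neural or tumour cells. Of the 10 markers 10 and 4 reached 10 CPM in oligodendrocytes, and all 10 did in neural or tumour cells of both libraries. Free RNA was estimated (summed list) at 26.5% and 0.44% of oligodendrocyte UMIs, and at 27.9% and 0% by the median gene. Red cell genes summed to 0 and 4340 CPM. The part of these in the comparisons was not tested. Ordered by mean CPM, each of Nfkb1, Nfkb2, Nfkbia, Nfkbie, Tnfaip3 and Birc3 had 1 step between neighbouring cell groups past the FDR. For Tnfaip3 that step lay between monocytes and oligodendrocytes, and for the other 5 it lay between the lowest immune group and neural or tumour cells. No neighbours differed for Rela, Relb, Rel and L1cam.

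Few of the 10 genes were called between immune lineages. T and B cells together against microglia and monocytes gave 1 call of 10, where 27.3% of 14442 genes were called: Tnfaip3 was higher in lymphoid cells (0.84 ± 0.29, edgeR FDR 0.047). Leaving out vehicle IgG 1, vehicle IgG 2 or mavrilimumab 2 gave FDR 0.062, 0.054 and 0.22. Between T cells and microglia, the groups with most cells, Rel was lower in T cells (-1.85 ± 0.55, edgeR FDR 0.019) and L1cam higher (2.61 ± 0.49, FDR 0.0011), 2 of 10 where 36.9% of genes were called (16.3% higher and 20.5% lower). Between T cells and monocytes none of the 10 was called, where 6.7% of genes were higher and 9.14% lower. At an unadjusted edgeR p under 0.05 stood 6 of the 10, beside 4080 of 14442 genes. B cells exceeded microglia in Birc3 (1.44 ± 0.36, edgeR FDR 0.013) and Nfkb2 (1.01 ± 0.30, FDR 0.028), 2 of 10 where 9.65% of genes were higher. Mavrilimumab 1 ran the other way for both, with 53.9 CPM of Birc3 in B cells and 69.8 CPM in microglia, and 38.1 and 40.3 CPM of Nfkb2.

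L1cam was higher in monocytes than in microglia and B cells. Microglia read 1.99, 4.47, 2.46 and 4.63 CPM in vehicle IgG 1 and 2 and mavrilimumab 1 and 2, and monocytes 28.3 CPM in vehicle IgG 2, 27.5 CPM in mavrilimumab 1 and 100 CPM in mavrilimumab 2. The log2 difference of microglia from monocytes was -3.92 ± 0.56 (edgeR FDR 0.00076), the only call of 10, where 6.98% of genes were lower and 9.67% higher. Without mavrilimumab 2 this difference of microglia from monocytes was -3.26 and no longer called (FDR 0.056). B cells also held less L1cam than monocytes (-2.24 ± 0.59, FDR 0.031), 1 of 10 where 6.45% of genes were lower. The monocyte group also held dendritic markers (609 to 892 CPM over 5 genes) and, in vehicle IgG 2 and mavrilimumab 2, the neutrophil gene S100a8 (7194 and 25380 CPM, and 0 in mavrilimumab 1). The cells grouped as dendritic read 33.5 and 36.7 CPM of L1cam in vehicle IgG 2 and mavrilimumab 2 (25 and 21 cells, 3 with a UMI in each). That is above the monocytes of vehicle IgG 2 and mavrilimumab 1 and below those of mavrilimumab 2.

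Nfkbia and Birc3 were called lower in T cells than in B cells, though 1 of the 3 libraries with both groups, mavrilimumab 1, ran the other way for both genes. Nfkbia read 662, 338 and 655 CPM in B cells of vehicle IgG 2, mavrilimumab 1 and mavrilimumab 2, and 243, 368 and 277 CPM in T cells of the same libraries (240 CPM in vehicle IgG 1), a log2 difference of T from B cells of -1.24 ± 0.31 (edgeR FDR 0.033). Birc3 read 199, 53.9 and 334 CPM in the same B cells and 56.2, 109.0 and 78.5 CPM in the T cells (-1.50 ± 0.36, FDR 0.027). These 2 of 10 genes were called lower in T cells, where 3.26% of genes were lower, 2.83% higher and 6.09% either. The 178 B cells of mavrilimumab 1 read 50920 CPM of Ighm and 35864 CPM of Jchain, genes of antibody-secreting cells (Ighm 214 and 1557 CPM and Jchain 6264 and 340 CPM in vehicle IgG 2 and mavrilimumab 2). They read lower than both other B cell sums for all 10 genes, but the share of all genes that did so was not counted. The part of the antibody genes in these lower levels was not tested. Rel read 15.4 CPM in the B cells of mavrilimumab 1, and 97.4 and 427 CPM in vehicle IgG 2 and mavrilimumab 2. Without mavrilimumab 1, Nfkbia had an FDR of 0.17 and Birc3 was still called. Without mavrilimumab 2 the FDRs were 0.26 and 0.31, without vehicle IgG 2 0.061 and 0.10, and without vehicle IgG 1 Birc3 had 0.056.

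Within T cells the inhibitor Nfkbia separated the subsets. Regulatory T cells (Treg, with a UMI of Foxp3), which restrain other T cells, read 820, 715 and 865 CPM of Nfkbia in vehicle IgG 2, mavrilimumab 1 and mavrilimumab 2. Other CD4 T cells (a UMI of Cd4, none of Cd8a, Cd8b1 or Foxp3) read 401, 424 and 314 CPM in the same libraries and 309 CPM in vehicle IgG 1, which had too few Treg cells. The ranges did not overlap, and Nfkbia was 0.99 ± 0.13 higher on the log2 scale in Treg cells (edgeR FDR 0.00098).

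Nfkb2 read 71.7, 102 and 68.4 CPM in Treg cells and 23.6, 56.3 and 27.6 CPM in CD4 T cells of the same libraries (0.89 ± 0.22, edgeR FDR 0.034). It was higher in each of the 3 libraries, though the 65.0 CPM of CD4 T cells in vehicle IgG 1 came near. These are 2 of 10 genes called higher, where 2.53% of 12327 genes were higher, 2.04% lower and 4.57% either. Nfkb2 lost its call when any of vehicle IgG 2 (FDR 0.088), mavrilimumab 1 (0.24) or mavrilimumab 2 (0.10) was left out, and Nfkbia kept it each time. Neither was called with free RNA subtracted by the summed list (Nfkbia 0.91, FDR 0.067) or without the library block (Nfkbia 1.08, FDR 0.072). The Treg cells of vehicle IgG 2 were 26, with 7 UMIs of Nfkb2 and 80 of Nfkbia.

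**Figure D3:**
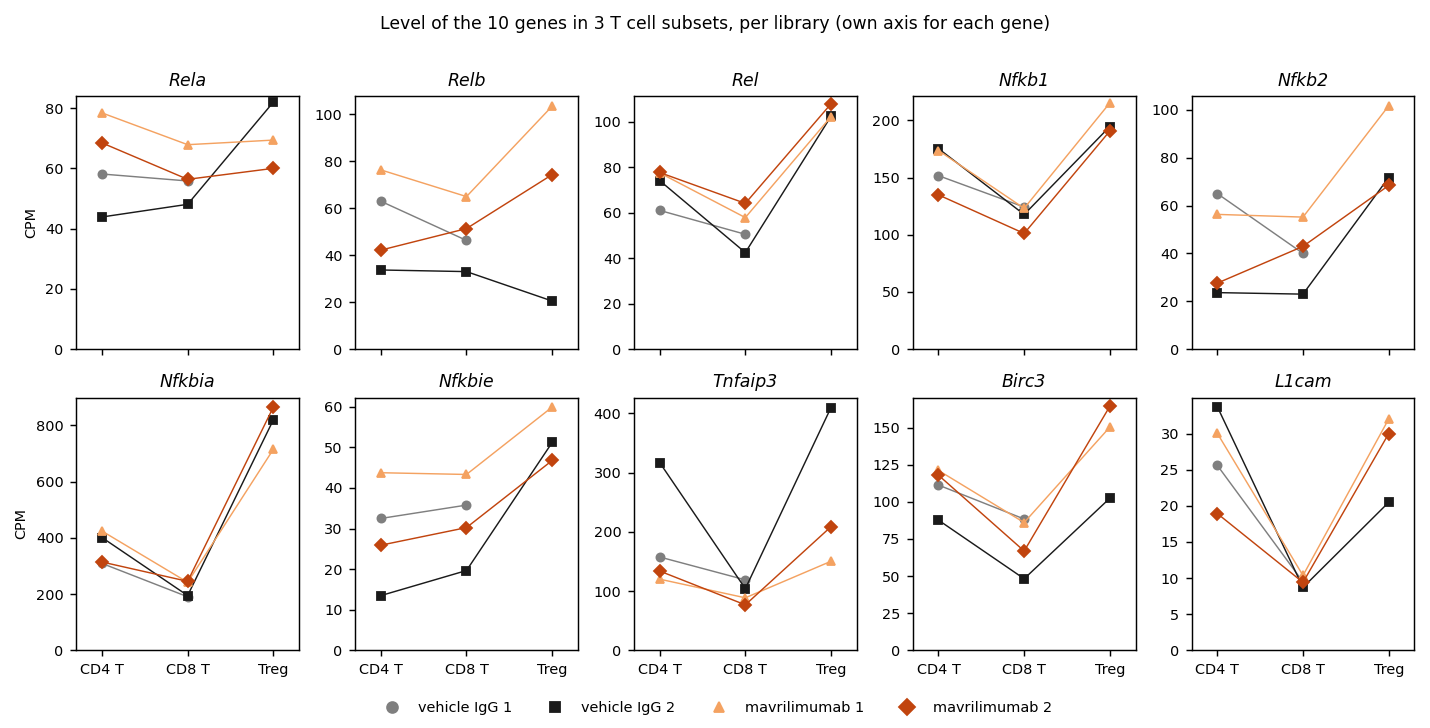
CPM of the 10 genes in CD4, CD8 and regulatory T cells, with points of 1 library joined by a line and an own axis for each gene. Nfkbia lies at 715 to 865 CPM in Treg cells and lies at 191 to 245 CPM in CD8 T cells. L1cam lies at 8.71 to 10.4 CPM in CD8 T cells of all 4 libraries, below every CD4 and Treg value.

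Of 12 receptors tested that activate NF-kB, 4 were called higher in Treg cells, none lower and 8 were not called. Those called higher included Tnfrsf9 (2.77 ± 0.44), Tnfrsf4 (2.29 ± 0.30) and Tnfrsf18 (1.61 ± 0.19), members of the TNF receptor family. Bcl3, a nuclear IkB protein, was also higher (1.09 ± 0.21), the only call among 9 further inhibitors. Of the kinases and adaptors 2 were higher (Irak2 and Birc2) and 2 lower, the kinase Map3k14 (NIK) of the noncanonical branch by -0.88 ± 0.20 and Prkcq (protein kinase C theta), which acts behind the T cell receptor, by -0.78 ± 0.17. Of 19 targets Ccl3, Ccl4 and Icam1 were higher and Ccr7, a homing receptor, lower. Stress genes summed to 3954, 1137 and 2479 CPM in Treg cells and 2833, 1160 and 1984 CPM in CD4 T cells of the 3 libraries.

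CD8 T cells, the cytotoxic subset, had lower levels of 5 of the 10 genes than CD4 T cells, where 5.57% of 12327 genes were called lower and 5.92% higher. L1cam read 9.47, 8.71, 10.4 and 9.41 CPM in CD8 T cells of vehicle IgG 1 and 2 and mavrilimumab 1 and 2, and 25.6, 33.7, 30.0 and 18.9 CPM in CD4 T cells. It was lower in 4 of 4 libraries without overlap, by -1.33 ± 0.21 (edgeR FDR 0.00098). Nfkbia read 191, 195, 242 and 245 CPM in CD8 and 309, 401, 424 and 314 CPM in CD4 T cells (-0.65 ± 0.12, FDR 0.0027), again lower in 4 of 4.

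Birc3 read 88.4, 48.2, 86.0 and 66.9 CPM in CD8 T cells and 111, 87.7, 121 and 118 CPM in CD4 T cells (-0.54 ± 0.12, edgeR FDR 0.0090). Tnfaip3 read 119, 104, 88.7 and 76.8 CPM in CD8 and 158, 317, 120 and 134 CPM in CD4 T cells, with the widest gap in vehicle IgG 2 (-0.72 ± 0.17, edgeR FDR 0.015, and 0.053 without that library). That library held 106 CD4 and 1957 CD8 T cells. Free RNA was estimated (summed list) at 46.0% of their CD4 and 30.6% of their CD8 UMIs. By the median gene of the list it was 47.4% and 27.8%. Empty droplets there read 24.4 CPM of Tnfaip3 (9 UMIs). The part of free RNA in the gap was not tested. Nfkb1 was lower in 4 of 4 libraries as well (-0.37 ± 0.10, FDR 0.023), but was no longer called without vehicle IgG 2 (0.058), mavrilimumab 1 (0.14) or mavrilimumab 2 (0.11), and Birc3 not without mavrilimumab 2 (0.11). With free RNA subtracted by the summed list, Nfkb1 turned to 0.21 (FDR 0.96) and 2 of the 10 genes were called, and without the library block 1 was. Stress genes were lower in CD8 T cells too, with sums of 860, 1211, 659 and 1033 CPM against 1235, 2833, 1160 and 1984 CPM in CD4 T cells, and 4 of 10 were called lower, among them Dusp1 (-1.43 ± 0.14) and Fos (-1.22 ± 0.23). Their part in the NF-kB differences was not tested. Further inhibitors were lower in 2 of 9 cases and kinases and adaptors in 3 of 29, with none higher. Among receptors 4 of 12 were lower and none higher, Tnfrsf4 (-4.06 ± 0.31) and Cd28 (-1.25 ± 0.14) among them. Of 19 targets 3 were lower and 4 higher, among the latter Ccl4 (5.51 ± 0.27) and Ccl3 (5.29 ± 0.47), chemokines of effector cells.

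Cells outside the 6 groups held the highest level of the inhibitor, a description with no test. Neutrophils read 2848 CPM of Nfkbia in vehicle IgG 2 (43 cells) and 8051 CPM in mavrilimumab 2 (51 cells), and 319 and 871 CPM of Tnfaip3. Dendritic cells read 262 and 658 CPM of Nfkbia and 181 and 318 CPM of Rel in the same libraries (25 and 21 cells). Natural killer cells of vehicle IgG 2 and mavrilimumab 2, with 440 and 366 cells, read 215 and 297 CPM of Nfkbia and 98.0 and 109 CPM of Tnfaip3, in the range of the T cell sums for Tnfaip3. In mavrilimumab 1, with 20 such cells, they read 222 and 24.7 CPM.

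The last question was whether the libraries labelled mavrilimumab differed from those labelled vehicle IgG. No gene of the 10 was called in T cells or microglia, with 2 libraries per label. None was called in B cells or monocytes either, but these have 1 vehicle library, which the fit takes to vary like the others. In T cells 0 of 14259 genes were called by edgeR, with 723 at an unadjusted p under 0.05, 1 of them among the 10 genes, and 151 were called by DESeq2. In B cells 0 of 9082 genes were called (378 unadjusted, 31 by DESeq2), in microglia 0 of 12219 (337 unadjusted, 6 by DESeq2), and in monocytes 28 of 6205, or 0.451%, all lower. DESeq2 called none of the 10 genes in any group. In neural or tumour cells and oligodendrocytes each label had 1 library, so no test was made. Of the further lists of inhibitors, kinases, receptors, targets, stress and interferon genes, no gene was called in T cells, B cells or microglia, and 1 of 18 targets was lower in monocytes. The interferon list, with none of 10 genes called, had a median log2 difference of 1.66 in T cells and 3.06 in monocytes.

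In T cells Relb came closest. It read 47.0 and 31.7 CPM in the vehicle IgG libraries and 74.7 and 52.8 CPM in the mavrilimumab libraries, without overlap, a log2 difference of 0.80 ± 0.27 (edgeR FDR 0.80). Rel (58.2 and 43.7 against 70.0 and 65.0 CPM) and Nfkbia (240 and 243 against 368 and 277 CPM) also lay higher without overlap, 3 of 10 where 11.7% of genes did. Nfkb1 (164 and 163 against 158 and 115 CPM) and Tnfaip3 (134 and 121 against 105 and 89.3 CPM) lay lower without overlap, 2 of 10 where 20.5% of genes did. The T cells of vehicle IgG 2 carried neural markers at 602 CPM over 10 genes, against 3.69 CPM in the lowest T cell sum, and their part in these values was not tested. The subsets of T cells also differed in number between libraries. Treg cells were 14 of 220 and 26 of 3934 T cells in vehicle IgG 1 and 2. They were 784 of 5153 and 91 of 2692 in mavrilimumab 1 and 2. CD8 T cells numbered 67, 1957, 1961 and 1817 in the same order. The part of the subsets in the T cell levels was not tested.

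**Figure D4:**
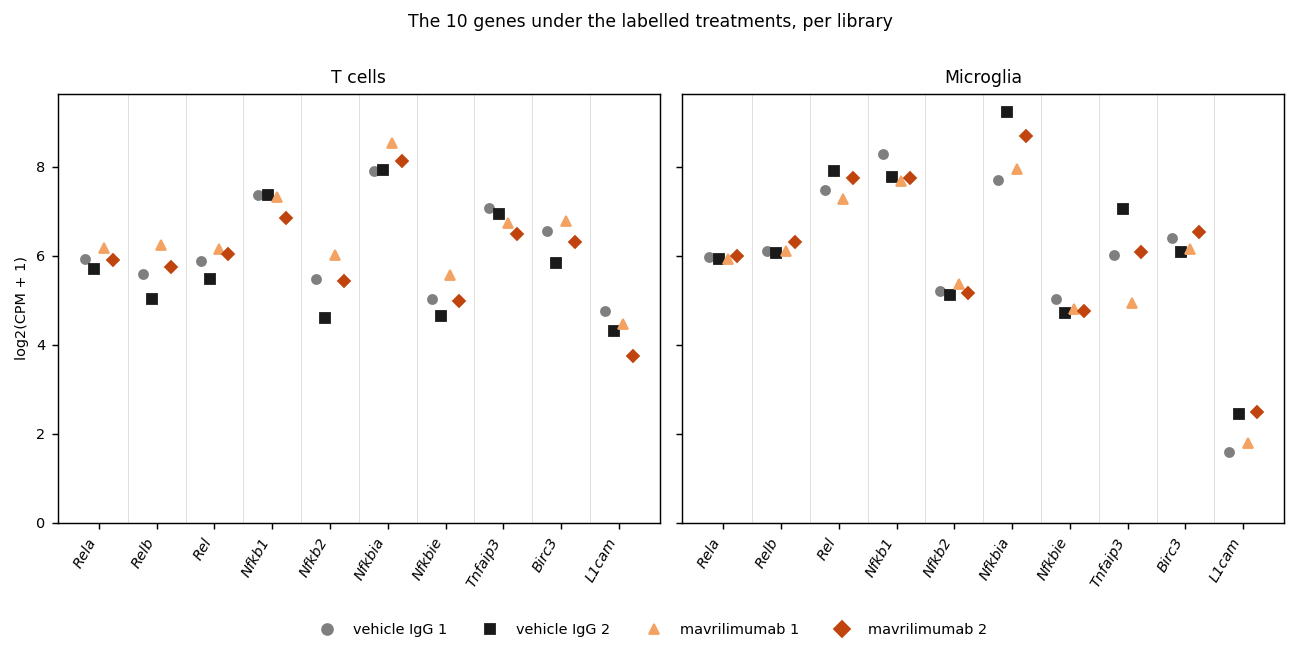
The 10 genes in T cells and microglia as log2(CPM + 1), with 1 point per library. In T cells Relb, Rel and Nfkbia lie higher in both mavrilimumab libraries, and in microglia the libraries of both labels are interleaved for all genes but Relb and Nfkb1.

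In microglia the spread within a label was wide for the feedback genes. Nfkbia read 205 and 599 CPM in the vehicle IgG libraries and 244 and 411 CPM in the mavrilimumab libraries, and Tnfaip3 63.2 and 130 CPM against 29.6 and 67.2 CPM. The sums of stress genes (4956, 11318, 2977 and 5802 CPM in the same order) ranked the 4 libraries as Tnfaip3 did, and the part of stress in these levels was not tested. Relb lay higher without overlap (68.0 and 65.5 against 68.2 and 78.5 CPM), 1 of 10 where 12.7% of genes did, and Nfkb1 lower (311 and 215 against 202 and 213 CPM), 1 of 10 where 17.7% did. The treatment differences in T cells and in microglia were not found to differ for any gene (0 of 15571 by edgeR, 375 unadjusted, none of the 10 genes among them).

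In monocytes, with vehicle IgG 2 as the lone vehicle library, 9 of the 10 genes read higher in both mavrilimumab libraries, where 32% of genes did. The 3 with the smallest p were Nfkb2 (10.6 against 66.8 and 38.0 CPM, log2 difference 2.29 ± 0.81, edgeR FDR 0.53), Birc3 (70.6 against 240 and 142 CPM, 1.49 ± 0.53, FDR 0.53) and Relb (17.7 against 78.6 and 40.7 CPM, 1.74 ± 0.72, FDR 0.57). These rest on 46, 32 and 84 cells, and with 1 vehicle library the label and that library cannot be told apart. S100a8 did not run with the label (7194 CPM in vehicle IgG 2, 0 and 25380 CPM in mavrilimumab 1 and 2). The monocytes of vehicle IgG 2 also carried neural markers at 586 CPM over 10 genes, against 3.93 and 8.13 CPM in mavrilimumab 1 and 2. Free RNA was estimated (summed list) at 30.0% of their UMIs, against 16.4% and 1.61%, and by the median gene at 29.2%, against 0% and 0%. The part of this RNA in the differences was not tested. In B cells, also with 1 vehicle library, Nfkb1 (397 against 38.9 and 225 CPM), Nfkbia and Tnfaip3 lay lower without overlap, 3 of 10 where 41.1% of genes did, and none lay higher.

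The likeness of the patterns is given as a description over the 18 sums of cell group and library, which share libraries. With log2(CPM + 1) centred within library, Pearson's r between pairs of the 8 genes other than Rela and L1cam lay between 0.70 (Rel and Tnfaip3) and 0.96 (Nfkbie and Birc3). These 8 are the genes called lower in neural or tumour cells, whose sums are among the 18, so r is not separate from that difference. Rela had r of 0.27 to 0.54 with the other genes and L1cam 0.27 to 0.62. Among 10442 genes with a mean of at least 10 CPM, the genes most like Birc3 were Zc3h12a (0.96), Nfkbie (0.96) and Srgn (0.95), and those most like Nfkbia were Snx20 (0.95), Birc3 (0.94) and Casp4 (0.94). Nfkbie was most like Rgs19 (0.96), Nfkb2 most like 4833438C02Rik (0.94), Relb most like Zc3h12a (0.95), Rel most like Mlxip (0.97), Nfkb1 most like Cysltr1 (0.94) and Tnfaip3 most like Txnip (0.94). Rela was most like Zc3h10 (0.91), and L1cam most like Vim (0.95), Plec (0.94) and Flna (0.93).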

How the data were processed

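Per the labels, single cells were captured with a 5′ kit with antigen receptor sequencing, aligned to mm10 and counted with Cell Ranger. The processing notes name version 7, and the deposited file headers version 9.0.1. The deposited values are raw UMI counts per gene and barcode, with no normalization, and unfiltered for cells.

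Cells were filtered and grouped by marker UMIs as described above, and counts were summed per library and cell group. Sums were fitted with edgeR 4.0.16 (R 4.3.3; TMM scaling, filterByExpr, quasi-likelihood test) over all genes, with library as a block between cell groups and no block between treatments, and p-values were adjusted by the Benjamini-Hochberg method. Differences with an FDR under 0.05 were called. DESeq2 1.42.0 was an alternative. Free RNA was read from barcodes of 10 to 100 UMIs. Doublets were scored with Scrublet (scanpy 1.11.5), which marked 0.0156% to 6.14% of the cells per library and did not work in the mavrilimumab libraries. Marked cells were kept in the values reported. T cell receptor files were used for barcodes and names only.

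The 10 genes and all gene lists were chosen with earlier results of these data known. In each list the genes named are the called genes with the largest differences, up to 3 in each direction. Fits were tested on simulated data. Values of 2 listed genes are not reported here, though the list counts include them.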

Additional observations from a re-analysis of the deposited data

How the results depend on the processing

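The calls among the 10 genes for neural or tumour cells against immune cells held best: Birc3 and Tnfaip3 were called under every alternative run, and leaving out 1 library gave 6 to 8 of the 10 genes and 1177 to 5419 of all genes. With free RNA subtracted by the summed list, 2 of the 10 genes and 3410 of all genes were called; its construction leaves fewer sums. Under that setting lymphoid against myeloid cells gave 1252 genes and 0 of the 10, T against B cells 384 and 0, microglia against monocytes 170 and 0, Treg against CD4 T cells 45 and 0, CD8 against CD4 T cells 355 and 2 (Nfkb1 reversed to 0.21), and treatment in monocytes 9. Subtraction by the median gene gave 189 genes and 1 of the 10 for Treg, 681 genes for CD8, 0 of the 10 for lymphoid cells, 0 for T against B, 2 for microglia against monocytes, and 4 genes in microglia and 52 in monocytes for treatment.

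Of the 10 genes, lymphoid against myeloid cells gave 0 with at least 2000 UMIs, without the highest Scrublet scores, without the library block and with DESeq2 size factors, and 2 with cells of several rules and with DESeq2. T against B cells gave 449 genes and 0 of the 10 with cells of several rules, 1366 and 1 without the filter on low counts, 1 of the 10 without the block, and 1561 genes with DESeq2. Microglia against monocytes gave 2 with at least 2000 UMIs, without Scrublet calls, with cells of several rules, with DESeq2 size factors and with DESeq2. Without the library block Treg gave 6 genes and 0 of the 10, CD8 99 and 1, and cycling cells 248, where DESeq2 gave 412. Without the filter Treg gave 1043 genes.

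Leaving out 1 library gave 1732 to 4032 genes and 0 to 2 of the 10 for lymphoid cells, 219 to 1710 and 0 to 1 for T against B, 365 to 2101 and 0 to 1 for microglia against monocytes, 238 to 447 and 1 to 2 for Treg, and 726 to 1231 and 3 to 5 for CD8. The causes were not tested.

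For treatment, none of the 10 genes was called under any alternative run. Counts over all genes were 151 in T cells, 31 in B cells and 6 in microglia with DESeq2. Without the filter they were 399 in B cells, 53 in microglia and 405 in monocytes. Monocytes gave 89 with at least 2000 UMIs, 10 without Scrublet calls, 107 with cells of several rules and 62 with DESeq2 size factors. In microglia, leaving out 1 library gave 0 to 600, with 600 without vehicle IgG 1 and 4 without vehicle IgG 2. The replicate block gave 116 genes in microglia and 0 in T cells (1003 unadjusted). Libraries with the same number correlated in their deviations from the group means at r of 0.37 in T cells and 0.38 in microglia, but with 2 pairs and no label that ties them the numbers are only shared. B cells and monocytes have 1 vehicle library, so none could be left out there.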
